A study of Homo sapiens with 2 samples.

Results

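The 38 genes described here belong to the ATF4 pathway and the unfolded protein response, and they were chosen by gene name for their known roles, without a rule on measured values but with earlier results of these data known. All 38 were found once each among the 59125 rows that carried a count. Messenger RNA was sequenced from H1944, an established human lung adenocarcinoma cell line, carrying either a control short hairpin RNA (shCON) or one directed at USP12 (shUSP12). The product of USP12 is an enzyme that takes ubiquitin off other proteins. There was 1 library per group. The labels give no culture time or further treatment and do not state which of the USP12 hairpins of the study was used, and the control hairpin is labelled RFP in the deposited table.

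Cells sense stress at the endoplasmic reticulum through PERK, IRE1 and ATF6. PERK is also 1 of several kinases that phosphorylate the translation factor eIF2α, which lowers protein synthesis in general but raises translation of ATF4, a transcription factor that turns on genes for amino acid supply, redox balance and cell fate. IRE1 splices XBP1 mRNA, and XBP1 and ATF6 turn on chaperones, folding enzymes and the machinery that removes misfolded proteins. Since eIF2α phosphorylation acts on translation, XBP1 on splicing and ATF6 on proteolysis, gene-level mRNA counts do not read these steps directly. In tumour cells both branches are known to be active under nutrient and secretory load.

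With 1 library a group no difference has a replicate check, and each statement below compares these 2 libraries and not the conditions in general. No p-value was computed. Levels are given as CPM, counts divided by the library total and expressed per 1000000, after scaling with TMM factors that correct for library composition, and differences are log2 ratios of shUSP12 over shCON after adding 0.1 CPM to each value. The 95% intervals are exact Clopper-Pearson intervals and cover counting error only. A gene is called higher or lower below only where this interval lay wholly on that side of 0.

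Depth was alike, with 18249112 counts for shCON against 17475359 for shUSP12. The targeted gene USP12 fitted its label, at 40.8 CPM with the control hairpin against 11.97 CPM with the USP12 hairpin, which gives −1.76 (95% interval −1.99 to −1.55). The 6 epithelial markers were read in both libraries, with summed levels of 7144 and 6076 CPM, whereas 5 leukocyte markers summed to 1.20 and 2.19 CPM, 5 endothelial markers to 1.20 and 3.01 CPM, and 6 fibroblast markers to 188 and 121 CPM. PTPRC, CD3E, CD68 and CDH5 had at most 3 counts in both. Of the 6 fibroblast markers only COL1A2 did, and the other 5 had more than 3 counts in both libraries. The libraries also differed in rows read in 1 of them alone, since 119 rows reached 50 counts only in shUSP12 while not exceeding 3 with the control hairpin, and 1 row showed the reverse. Those 119 rows summed to 1176 CPM in the shUSP12 library. None of the 38 genes was among them, but whether the source of these rows contributed to the differences given below was not tested.

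As the 2 branches differ in their promoter letters, the promoters of the genes were read first, from RefSeq sequences on GRCh38.p14 covering the 250 bases before each RefSeq start. By GENCODE some genes begin further upstream, so that some of these windows lie partly or wholly within the gene. An entry was found for 34 of the 38 genes and not for PSPH, SHMT2, ALDH1L2 and NUPR1. Searched on both strands, the endoplasmic reticulum stress element (ERSE; CCAAT, then 9 bases, then CCACG) stood in 26 of 34788 promoters, or 0.0747%, and its variant ERSE-II (ATTGG, then 1 base, then CCACG) in 18, or 0.0517%. Among the 34 promoters read, 5 held ERSE and 3 held ERSE-II, and all 8 genes were ATF6 and XBP1 targets or XBP1 itself. ERSE is known to be bound by ATF6 and XBP1, and the genes were chosen for their known roles. Their excess over all promoters is thus no finding of these data, and the matches are shown only to mark the genes that carry the element. They are oriented so that the letters read forward, with the 2 conserved blocks in capitals.
HSPA5: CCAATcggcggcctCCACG
HSP90B1: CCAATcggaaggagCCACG
HSP90B1, second match: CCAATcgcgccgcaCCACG
CALR: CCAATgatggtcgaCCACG
CRELD2: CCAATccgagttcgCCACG
XBP1: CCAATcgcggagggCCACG
SDF2L1: ATTGGtCCACG
HYOU1, both matches: ATTGGaCCACG
HERPUD1: ATTGGgCCACG

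The first of these lay at chr9:125241391-125241409 for HSPA5, where gene and letters were on the minus strand, from 66 to 48 bases before the start. The others lay at chr12:103930216-103930234 and chr12:103930321-103930339 (HSP90B1), chr19:12938384-12938402 (CALR), chr22:49918554-49918572 (CRELD2), chr22:28800603-28800621 (XBP1), chr22:21642114-21642124 (SDF2L1), chr11:119057380-119057390 and chr11:119057274-119057284 (HYOU1), and chr16:56932025-56932035 (HERPUD1). By GENCODE positions the HSP90B1 and CRELD2 matches lie within the gene, and those of the other genes lie before it. The HSPA5 promoter is shown at greater length as the best known member of the group, with its exact ERSE match in capitals. The 39 bases next to the RefSeq start are left out, since by GENCODE they lie within the gene. The sequence shown has 211 bases. It covers chr9:125241383-125241593 and is read 5′ to 3′ along the minus strand.
HSPA5 promoter: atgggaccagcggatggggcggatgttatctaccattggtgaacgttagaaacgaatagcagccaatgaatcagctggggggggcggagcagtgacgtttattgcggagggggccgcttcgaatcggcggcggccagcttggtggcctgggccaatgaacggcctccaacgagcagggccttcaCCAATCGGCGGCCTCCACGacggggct

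For the ATF4 branch the core of the C/EBP-ATF response element was searched as TGATGNAA, which includes the reverse complement of TTGCATCA. It stood in 1098 of 34788 promoters, or 3.16%, and in 3 of the 34 read here, ASNS, CHAC1 and HERPUD1. The stricter TTGCATCA stood in 270 promoters, or 0.776%, and in CHAC1 and HERPUD1 among these genes. The core TGACGTGG, a known XBP1 site, stood in 215 promoters, or 0.618%, and in HYOU1 here, where it overlapped 1 ERSE-II match. The 3 matches are shown with their flanks on the strand of the gene, with the core in capitals. They lay at chr7:97872458-97872487 on the minus strand for ASNS, and at chr15:40953251-40953280 for CHAC1 and chr16:56931955-56931984 for HERPUD1 on the plus strand. By GENCODE positions the ASNS and CHAC1 matches lie within the gene, and that of HERPUD1 lies before it.
ASNS: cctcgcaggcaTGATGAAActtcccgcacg
CHAC1: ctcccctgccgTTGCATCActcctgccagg
HERPUD1: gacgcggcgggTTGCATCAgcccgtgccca

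Taken by count, none of the 38 genes differed by 2-fold or more between the libraries, whereas 6.48% of the 14612 tested rows were 2-fold higher or more with shUSP12 and 3.01% were 2-fold lower or more. Rows were tested where the 2 libraries averaged 1 CPM or more, and all 38 genes passed this filter. At 1.5-fold, 4 of the 38 genes (10.5%) were higher and none was lower, against 11.9% and 9.11% of tested rows, so neither share exceeded that of all rows. The counting interval lay above 0 for 17 genes (44.7%, against 27.1% of tested rows) and below 0 for 11 (28.9%, against 29.1%). It included 0 for the other 10. Scaling by total counts without a factor placed 23 genes above 0 and 8 below it, beside 39.8% and 18.6% of rows. PHGDH, PSPH, MTHFD2, TRIB3, ATF6 and DNAJB9 were above 0 only there or, for PSPH, with DESeq2 size factors as well. These shares depend on depth, because abundant genes have narrow intervals, and over the 11130 rows that averaged 5 CPM or more they were 27.8% and 33.3%. At this level 3.24% and 1.51% of rows passed 2-fold higher and lower, and 7.4% and 6.54% passed 1.5-fold. The 10.5% of the 38 genes that were 1.5-fold higher thus lay between the 7.4% at this level and the 11.9% of all tested rows. As it rests on 4 genes, no excess is read from it, and the 38 include ASNS, which averaged only 2.27 CPM. The median log2 ratio of the 38 genes was 0.10, beside −0.01 for all tested rows.

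**Figure D1:**
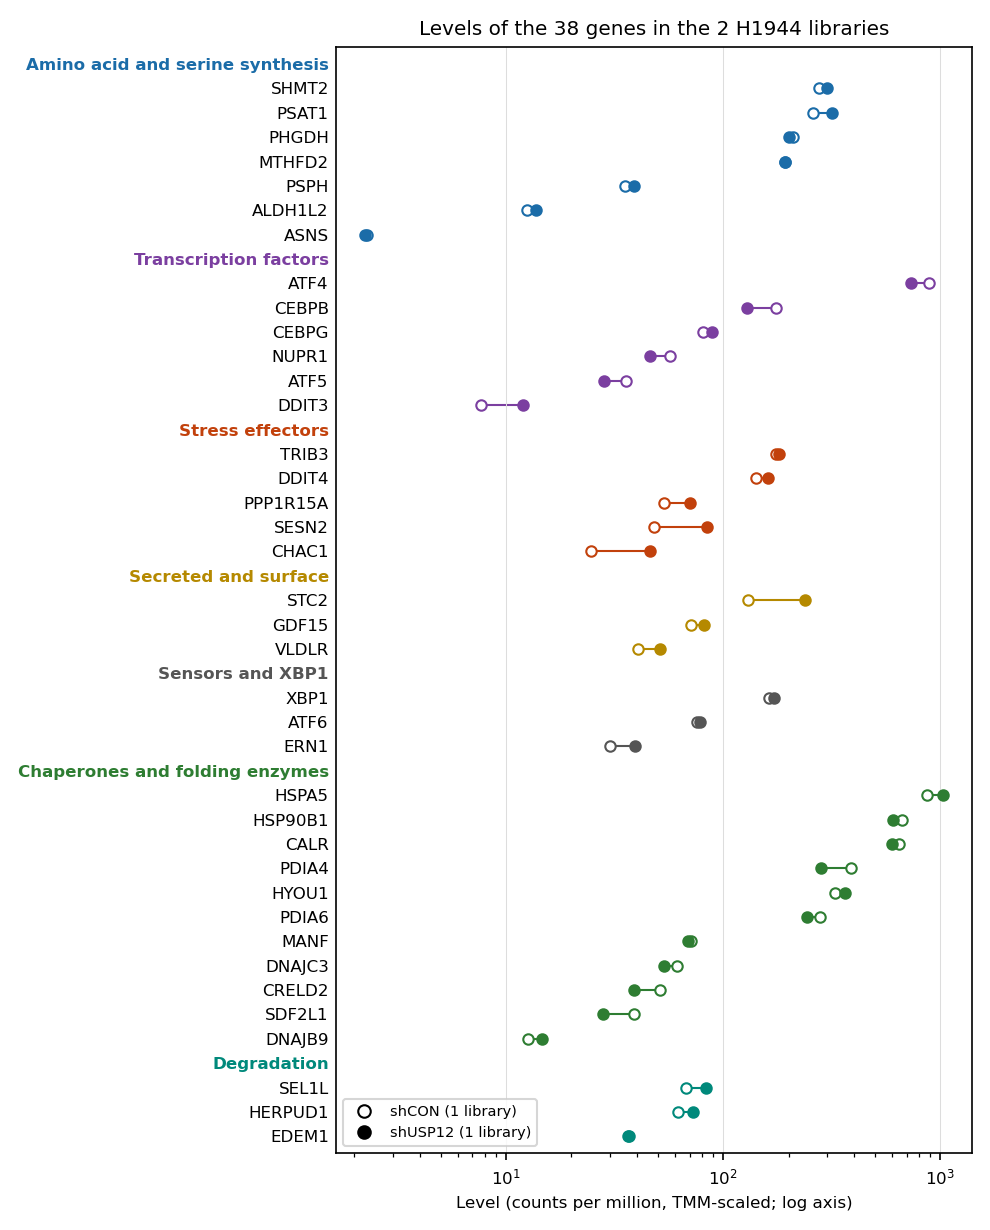
Level of each of the 38 genes in the shCON library (open circles) and the shUSP12 library (filled circles), in TMM-scaled CPM on a log axis, grouped by role and ordered within a role by the shCON level. The circles of most genes lie close together, and those of CHAC1, STC2, SESN2 and DDIT3 lie farthest apart with shUSP12 on the right.

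Within this modest spread the median log2 ratio was 0.39 for the 5 stress effectors, 0.34 for the 3 secreted and surface proteins, 0.23 for the 3 degradation genes and 0.12 for the 7 enzymes of amino acid and serine synthesis. It was −0.14 for the 11 chaperones and −0.29 for the 6 transcription factors. By their intervals 7 of the chaperones were lower, of which 4 stayed so under every scaling tried, and 4 of the transcription factors were lower under every scaling tried. With TMM 63.6% of the chaperones and 66.7% of the transcription factors were lower. Of all tested rows 29.1% were lower, and of those that averaged 5 CPM or more 33.3%. In bulk RNA, a change in some of the cells and a smaller change in all of them cannot be told apart. As no list has replicates, these orderings are descriptions of the 2 libraries.

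Among the ATF4 pathway genes of the main set, which leaves out the more abundant transporters SLC7A5 and SLC3A2, ATF4 was the most abundant mRNA. It had 15483 counts (888 CPM) with shCON and 13338 counts (729 CPM) with shUSP12, and its log2 ratio of −0.29 (95% interval −0.32 to −0.25) made it lower with shUSP12. Per kilobase of the main transcript its level was 626 CPM in shCON and 514 CPM in shUSP12, ranks 101 and 103 among 12698 protein-coding rows. ATF5 and CEBPB, related factors of the same response, were lower as well. ATF5 had 35.6 CPM in shCON and 28.2 CPM in shUSP12 (−0.33, 95% interval −0.51 to −0.16), and CEBPB had 175 and 129 CPM (−0.44, 95% interval −0.52 to −0.37). Exons on the opposite strand cover 19.5% of the ATF5 and 12.6% of the CEBPB exon bases. Opposite ATF5, with its 620 and 516 counts, NUP62 had 3148 counts in shCON and 2582 in shUSP12, and IL4I1 had 7 and 29. The part of these neighbours in the ATF5 counts was not tested. NUPR1, a small stress-induced cofactor, had 56.7 and 46.2 CPM (−0.29, 95% interval −0.43 to −0.16). CEBPG, a dimer partner of ATF4, went the other way with 80.7 and 88.6 CPM (0.13, 95% interval 0.03 to 0.24), but its interval included 0 with upper quartile factors.

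DDIT3, which encodes the pro-apoptotic factor CHOP, was the transcription factor with the largest difference. Its 133 counts with shCON and 218 counts with shUSP12 correspond to 7.63 and 11.9 CPM and to a log2 ratio of 0.64 (95% interval 0.33 to 0.97). DDIT3 is the least abundant factor of the group, and 31.6% of its exon bases overlap exons of MARS and MBD6 on the opposite strand. The libraries were stranded, but whether the counting used the strand is not stated, and the part of these neighbours in the DDIT3 counts was not tested. MARS had 7146 and 8607 counts.

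The largest differences of the 38 genes were found among the effectors that ATF4 and CHOP are known to induce. CHAC1, which degrades glutathione, had 429 counts (24.6 CPM) with shCON and 837 counts (45.7 CPM) with shUSP12, a log2 ratio of 0.89 (95% interval 0.72 to 1.07). STC2, a secreted glycoprotein, had 2254 counts (129 CPM) and 4348 counts (238 CPM), a log2 ratio of 0.88 (95% interval 0.80 to 0.95). SESN2, a leucine sensor that restrains mTORC1, had 837 counts (48.0 CPM) and 1539 counts (84.1 CPM), a log2 ratio of 0.81 (95% interval 0.69 to 0.93). On GRCh38, by GENCODE, the genes lie at chr15:40952962-40956512 (CHAC1), chr5:173314723-173328447 (STC2) and chr1:28259518-28282491 (SESN2). All 3 were therefore close to but below 2-fold. With scaling to total counts alone, CHAC1 at 1.02 and STC2 at 1.01 passed it and SESN2 at 0.94 did not. Of all tested rows, 92.6%, 92.4% and 91.7% had a lower log2 ratio than CHAC1, STC2 and SESN2.

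The other effectors differed less. PPP1R15A, which encodes the GADD34 subunit that returns eIF2α to its active form, had 53.4 CPM in shCON and 70.2 CPM in shUSP12 (0.39, 95% interval 0.27 to 0.52). DDIT4, another restraint on mTORC1, had 141 and 160 CPM (0.18, 95% interval 0.11 to 0.26). TRIB3, a pseudokinase that feeds back on ATF4 and CHOP, had 175 and 180 CPM, and its log2 ratio of 0.04 had an interval from −0.03 to 0.11 and changed sign with upper quartile factors. CHAC1, SESN2 and TRIB3 are all known ATF4 targets, yet the interval of TRIB3 lay below those of the other two. VLDLR, a lipoprotein receptor, had 40.6 and 51.3 CPM (0.34, 95% interval 0.20 to 0.48), and GDF15, a secreted stress cytokine, had 71.0 and 81.7 CPM (0.20, 95% interval 0.09 to 0.31). All 3 secreted and surface genes were thus higher, as were 4 of the 5 stress effectors. Of all tested rows 27.1% were higher, and of those that averaged 5 CPM or more 27.8%.

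Relative to ATF4 within the same library, a comparison that no scaling can alter, CHAC1 had 0.0277 counts per ATF4 count in shCON and 0.0628 in shUSP12. This was 2.26 times as many (95% interval 2.01 to 2.56, conditional exact). The corresponding change was 2.24 times for STC2 (95% interval 2.12 to 2.37) and 2.13 times for SESN2 (95% interval 1.95 to 2.33). PSAT1 had 0.291 counts per ATF4 count in shCON and 0.435 in shUSP12. These targets were thus higher relative to the mRNA of their regulator. Most tested rows were so too, since ATF4 itself was lower and only 23.2% of tested rows had a lower log2 ratio than ATF4. Being higher relative to ATF4 did not hold for all genes under it. The transporter genes SLC7A5 and SLC3A2 had log2 ratios of −0.79 and −0.57, below the −0.29 of ATF4. The pairs with ATF4 were chosen after the values were seen.

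**Figure D2:**
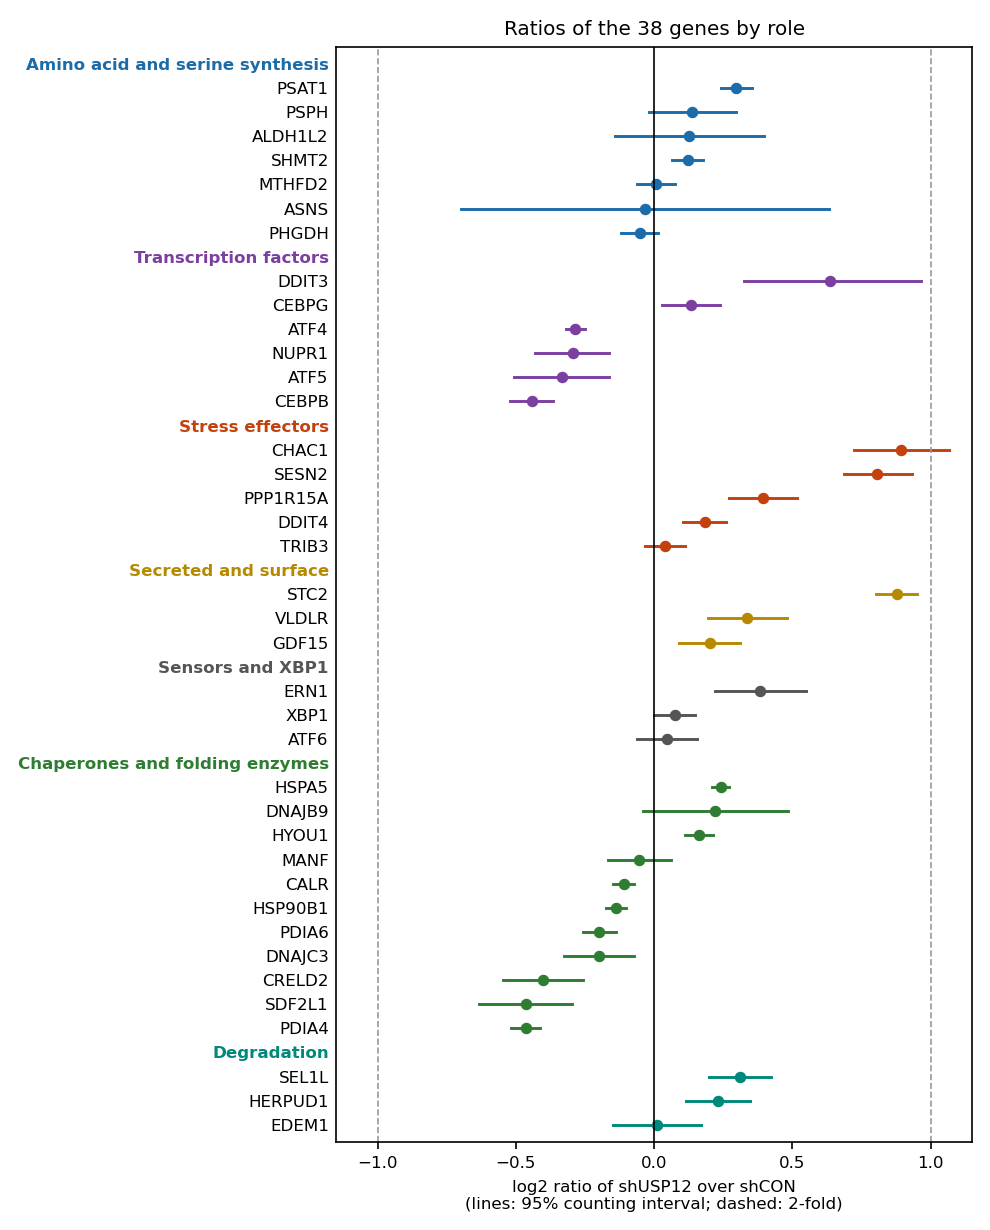
log2 ratio of shUSP12 over shCON for each of the 38 genes (points) with its exact 95% counting interval (lines), grouped by role. No point lies beyond the dashed 2-fold lines, the stress effectors and secreted proteins lie at or right of 0, 4 of the 6 transcription factors lie left of 0, and the chaperones run from 0.24 for HSPA5 to −0.46 for PDIA4.

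The ATF4 targets of amino acid and serine synthesis made up the first of the 2 arms to be set against each other. Their median log2 ratio was 0.12, with a range from −0.05 to 0.30, and none of the 7 was lower by its interval. By intervals 2 (28.6%) were higher, and over all tested rows 27.1% were higher and 29.1% lower. Summed over the 7 genes, the level was 986 CPM with shCON and 1068 CPM with shUSP12, or 0.11 on the log2 scale (95% interval 0.09 to 0.14). The serine pathway runs through PHGDH, PSAT1 and PSPH in turn. PHGDH had 209 and 201 CPM (−0.05, 95% interval −0.12 to 0.01). PSAT1 had 258 and 317 CPM (0.30, 95% interval 0.24 to 0.35) and was the enzyme with the largest difference. PSPH had 35.3 and 38.9 CPM (0.14, 95% interval −0.02 to 0.30). PSAT1, the middle step, was higher under all 4 scalings. No direction can be given for the others, since PSPH was above 0 with total counts and with DESeq2 size factors, and PHGDH was above 0 with total counts and below 0 with upper quartile factors.

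Serine then feeds one-carbon metabolism in the mitochondria. SHMT2, which splits serine to glycine, had 277 and 302 CPM (0.12, 95% interval 0.07 to 0.18). MTHFD2, the next folate enzyme, had 192 and 193 CPM (0.01, 95% interval −0.06 to 0.08). ALDH1L2, which oxidises formyl-folate, had 12.5 and 13.7 CPM (0.13, 95% interval −0.14 to 0.40). SHMT2 was thus slightly higher under all 4 scalings, whereas MTHFD2 changed sign with upper quartile factors. Per kilobase of the main transcript SHMT2, PSAT1 and PHGDH stood at 129, 117 and 112 CPM in shCON, while MTHFD2 stood at 43.6, PSPH at 17.9 and ALDH1L2 at 1.68. Pseudogenes named after MTHFD2, PSAT1, PSPH, ASNS, ATF4 and XBP1 took 21 rows, of which 4 had more than 3 counts, and fragments that fit both copies may be missing from the counts of either.

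ASNS, which makes asparagine and is among the best known ATF4 targets, needs a reservation of its own. Only 40 and 41 counts were read for it, or 2.29 and 2.24 CPM, by far the lowest of the 38 genes, the next being DDIT3. Of its main transcript, 99.5% also lies in exons of AC079781.5, an annotated gene on the same strand, and no other member shared more than 11.6% in this way. Among 648 protein-coding rows whose main transcript was shared by at least 90%, 79.2% had at most 3 counts in both libraries, against 22.8% of 17996 rows shared by less than 10%. AC079781.5 had 9 and 12 counts, and ASNSP1, a transcribed pseudogene, had 123 and 193 counts. Whether fragments that fit overlapping genes are absent from the ASNS count was not tested. Neither a level nor a direction is read from this count, whose ratio had a wide interval (−0.03, 95% interval −0.70 to 0.63). ASNS remains in the median, range, interval counts and summed level given above for the synthesis targets. With a mean of at least 5 CPM required, which leaves ASNS out, their median log2 ratio was 0.12.

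The second arm comprised 14 ATF6 and XBP1 targets, of which 11 are chaperones and folding enzymes and 3 serve degradation. Its median log2 ratio was −0.08, with a range from −0.46 to 0.31, but with scaling to total counts alone the median was 0.05. By their intervals 4 of the 14 genes were higher and 7 lower, against 27.1% and 29.1% of tested rows. Without a TMM factor 5 were higher and 4 lower, beside 39.8% and 18.6% of rows. The balance of the 2 directions thus depended on the scaling. Summed over the arm, the level was 3578 CPM in shCON and 3520 CPM in shUSP12. The median of the first arm stood above that of the second by either scaling, at 0.12 against −0.08 and at 0.25 against 0.05, but the values of both arms overlapped and the difference between them was not tested.

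HSPA5 and HYOU1 were the higher ones among the chaperones. HSPA5, which encodes BiP, the central chaperone of the endoplasmic reticulum, had 15172 counts (870 CPM) with shCON and 18827 counts (1029 CPM) with shUSP12, a log2 ratio of 0.24 (95% interval 0.21 to 0.27). HYOU1, its nucleotide exchange factor, had 326 and 365 CPM (0.16, 95% interval 0.11 to 0.21). Their J-domain partners were not alike. DNAJB9, which recruits BiP to IRE1, had 12.6 and 14.7 CPM (0.22, 95% interval −0.04 to 0.49), while DNAJC3 had 60.9 and 53.1 CPM (−0.20, 95% interval −0.33 to −0.07), with an interval that included 0 for scaling to total counts alone. SDF2L1, a further component of BiP complexes, had 38.7 and 28.0 CPM (−0.46, 95% interval −0.63 to −0.30).

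PDIA4, PDIA6 and CRELD2 were lower. PDIA4, a disulphide isomerase, had 6775 counts (389 CPM) with shCON and 5154 counts (282 CPM) with shUSP12, a log2 ratio of −0.46 (95% interval −0.52 to −0.41), the lowest of the 38 genes. PDIA6, of the same family, had 280 and 244 CPM (−0.20, 95% interval −0.26 to −0.14). Of its exon bases, 25.2% lie opposite exons of ATP6V1C2, which had 7 counts in shCON and 7 in shUSP12. CRELD2, a secreted factor with isomerase activity, had 51.1 and 38.6 CPM (−0.40, 95% interval −0.55 to −0.26). These 3 genes and SDF2L1 kept an interval below 0 under all 4 scalings tried.

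HSP90B1 and CALR, a chaperone of the HSP90 family and a lectin chaperone, differed little. HSP90B1 had 666 and 605 CPM (−0.14, 95% interval −0.18 to −0.10), and CALR had 647 and 599 CPM (−0.11, 95% interval −0.15 to −0.07). With scaling to total counts alone their log2 ratios were −0.01 and 0.02 and both intervals included 0, so no direction can be given for either. MANF, a secreted regulator of BiP, had 71.1 and 68.5 CPM (−0.05, 95% interval −0.17 to 0.06), and changed sign with total counts. Per kilobase of the main transcript, CALR at 340 CPM, HSP90B1 at 239 CPM and HSPA5 at 222 CPM were the most abundant members in shCON after ATF4.

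That HSPA5 and PDIA4 changed unequally was seen without any scaling. The libraries held 2.24 HSPA5 counts per PDIA4 count in shCON and 3.65 in shUSP12, which was 1.63 times as many (95% interval 1.56 to 1.70). HYOU1 counts per PDIA4 count were likewise 1.54 times as many (95% interval 1.47 to 1.62). These pairs too were chosen after the values were seen.

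In the degradation arm, misfolded proteins are recognised and sent out of the endoplasmic reticulum. HERPUD1, a membrane scaffold, had 62.1 CPM in shCON and 72.9 CPM in shUSP12 (0.23, 95% interval 0.11 to 0.35). SEL1L, the adaptor of the HRD1 ligase, had 67.1 and 83.2 CPM (0.31, 95% interval 0.20 to 0.42). EDEM1, which trims mannose on glycoproteins, had 36.5 and 36.8 CPM (0.01, 95% interval −0.15 to 0.17). SEL1L and HERPUD1 were thus higher, whereas the interval of EDEM1 included 0.

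Of the sensors, ERN1, which encodes IRE1α, had 30.1 and 39.3 CPM (0.38, 95% interval 0.22 to 0.55) and was higher. ATF6 had 75.4 and 77.8 CPM (0.05, 95% interval −0.06 to 0.16). XBP1 had 163 and 171 CPM (0.08, 95% interval 0.0014 to 0.15), and its interval included 0 with upper quartile factors. These counts add up all XBP1 mRNA and do not separate the spliced form.

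Set against the promoter letters shown above, the 8 genes with ERSE or ERSE-II did not move together. HSPA5, HYOU1, HERPUD1 and XBP1 had log2 ratios above 0 and HSP90B1, CALR, CRELD2 and SDF2L1 below 0, except that CALR stood at 0.02 when only total counts were used for scaling. Among the 3 genes with the C/EBP-ATF core, CHAC1 stood at 0.89 and HERPUD1 at 0.23, while no direction was read for ASNS, as stated above. STC2, SESN2 and DDIT3 had no match to the searched letters in these windows.

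The rest of the pathway was described with lists of further genes. Their counts by interval moved with the scaling, and the values with total counts alone are given beside them. For comparison, the interval lay above 0 for 27.1% of all tested rows and below 0 for 29.1%. With total counts alone these shares were 39.8% and 18.6%. Of 20 cytosolic tRNA synthetases, many of which ATF4 is known to induce, 9 were higher and 5 lower by their intervals (15 and 2 with total counts), with a median log2 ratio of 0.06. The highest was WARS, which is also known as an interferon-induced gene, at 169 and 250 CPM (0.56, 95% interval 0.50 to 0.63), followed by GARS at 0.40. Among 12 genes of eIF2 kinases and eIF2 control, 6 were higher and 4 lower (6 and 0 with total counts), with a median of −0.01. EIF2AK2, the interferon-induced kinase PKR, had 58.0 and 112 CPM (0.95, 95% interval 0.84 to 1.06), while EIF2AK3, which encodes PERK, had 9.47 and 7.49 CPM (−0.33) with 165 and 137 counts.

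The amino acid transporters under ATF4 were read next. Of 10 transporters 9 passed the filter, of which 1 was higher and 6 lower by their intervals, with a median log2 ratio of −0.16. These counts were 11.1% and 66.7% of the list, beside 27.1% and 29.1% of all tested rows. With total counts 1 was higher and 2 lower, and the median was −0.02. SLC7A5 and SLC3A2, the 2 chains of the large neutral amino acid exchanger, had 5011 and 2906 CPM (−0.79, 95% interval −0.80 to −0.77) and 1781 and 1199 CPM (−0.57, 95% interval −0.60 to −0.55). SLC38A2, a glutamine and alanine carrier, was the higher one at 180 and 278 CPM (0.62, 95% interval 0.56 to 0.69). Of 12 other amino acid and folate enzymes that passed, 3 were higher and 7 lower (4 and 5 with total counts). ASS1, which makes argininosuccinate, had 979 and 644 CPM (−0.60, 95% interval −0.64 to −0.57), and CTH, which makes cysteine, had 15.7 and 23.8 CPM (0.60, 95% interval 0.38 to 0.82).

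For the endoplasmic reticulum, 14 other folding genes had a median of −0.06 with 4 higher and 4 lower, and with total counts a median of 0.07 with 6 higher and 3 lower. By TMM 28.6% were thus higher and 28.6% lower, near the 27.1% and 29.1% of all tested rows. The lowest, TXNDC5, had 58 and 21 counts, and 90.5% of its main transcript is shared with the readthrough gene BLOC1S5-TXNDC5. Of 24 genes of translocation and degradation, 8 were higher and 3 lower (18 and 1 with total counts), with a median of 0.05. Among 9 other stress factors and proteases that passed, 3 were higher and 2 lower (5 and 0 with total counts). CREB3L1, a membrane-bound relative of ATF6, went from 8 counts with shCON to 82 with shUSP12 (3.04, 95% interval 2.24 to 4.55). This was the largest ratio among the genes of all lists that passed the filter. ATF3, a factor downstream of ATF4, had 22.1 and 29.1 CPM (0.39, 95% interval 0.20 to 0.59).

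**Figure D3:**
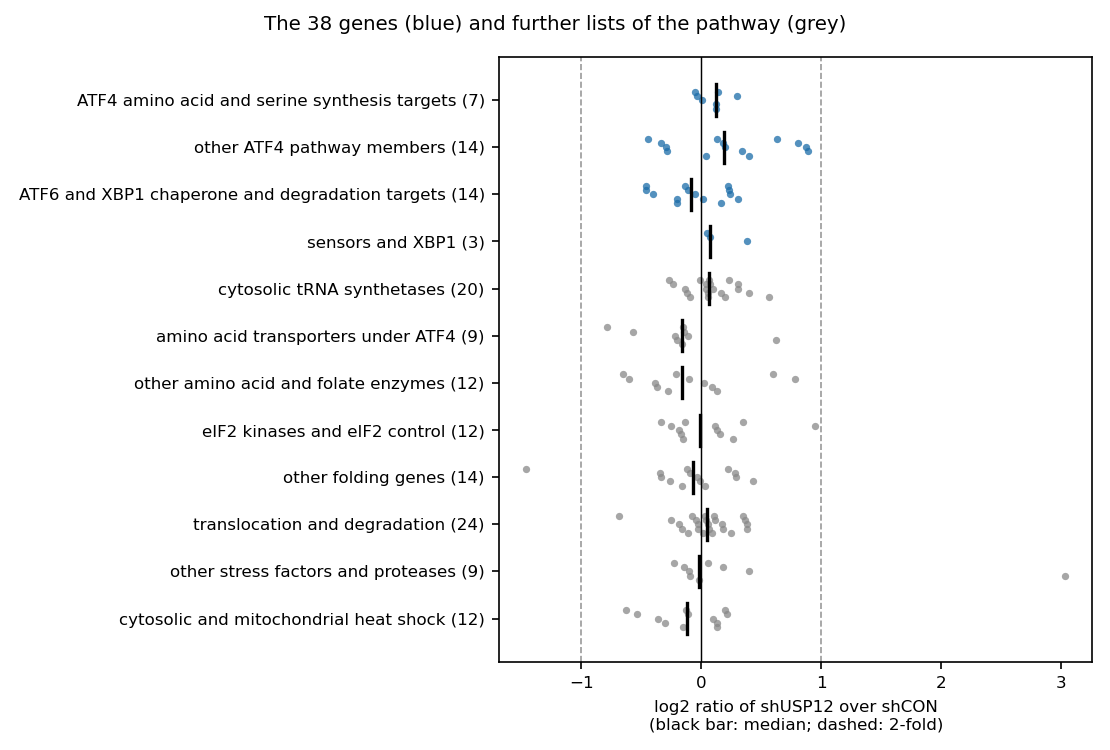
log2 ratio of shUSP12 over shCON for the genes that passed the filter, 1 point per gene, with the 38 genes in blue by arm and the further lists in grey; black bars are medians and the number of genes stands in brackets. All medians lie between −0.16 and 0.19, and the points beyond the dashed 2-fold lines are TXNDC5 and CREB3L1.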

How the data were processed

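The deposited tables held whole-number counts of fragments per gene, made by the authors without normalisation. By the study's methods, reads were trimmed and cleared of ribosomal RNA with Seqtk, aligned to GRCh38 with Hisat2 and counted with StringTie from uniquely mapped fragments. The submitters' processing notes instead name Trimmomatic, HISAT2 2.0.4 and HTSeq 0.6.0, so the counter is uncertain, and the annotation release and the strand setting are not given in the sources used here. Such counting can leave out fragments that fit several genes. Left out were 91 lines of spilled annotation text in each file, which had no count.

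Groups came from the treatment labels. The remaining rows were scaled with TMM factors (0.955 for shCON, 1.05 for shUSP12) from edgeR 4.0.16 in R 4.3.3, and ratios and exact 95% intervals were computed with Python 3.11.15, NumPy 2.4.6, pandas 2.3.3 and SciPy 1.17.1. Figures were drawn with Matplotlib 3.10.9. No pseudocount enters an interval. Fragments without molecular identifiers are not independent molecules. Without TMM factors, 3 counts equal 0.164 CPM for shCON and 0.172 CPM for shUSP12. This is about the one-sided 95% limit for a count of 0, whereas the intervals given above are two-sided. Transcript lengths, positions and shared exons came from GENCODE release 44, which held 99.1% of the Ensembl identifiers. The script was tested on simulated data. No test was possible with 1 library per group.

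The genes, lists and promoter letters were chosen with earlier results of these data known. All 38 genes and USP12 were to be named, and of each further list at most the 2 highest and 2 lowest genes above 1 CPM. Outside this rule, neighbours and copies (MARS, MBD6, NUP62, IL4I1, AC079781.5, ASNSP1, ATP6V1C2, BLOC1S5-TXNDC5, HSPE1-MOB4) and HSPD1, the partner of HSPE1, were named after their values were seen. One of the cell type markers chosen at the outset is not reported here.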

Additional observations from a re-analysis of the deposited data

How the results depend on the processing

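The scaling was the choice that mattered most. Scaling to total counts alone moved the median over the 14612 tested rows from −0.01 to 0.12 and placed 2 of the 38 genes at least 2-fold higher. The median of the amino acid and serine synthesis targets was then 0.25, that of the other ATF4 pathway genes 0.32 and that of the chaperone and degradation targets 0.051, which changed its sign, as did the ratio of CALR at 0.023. A 1.5-fold threshold gave 4 genes higher. DESeq2 1.42.0 size factors, upper quartile factors, pseudocounts of 0.01 and 1 CPM, no filter, a mean of at least 5 CPM, the mean of a list and summed rows left no gene past 2-fold where they bear on that count, and kept the 3 medians at 0.08 to 0.14, 0.15 to 0.22 and −0.13 to −0.06. A 4-fold threshold also gave 0. Of 190 values of single genes under 5 alternatives, 161 stayed inside their counting interval, 28 moved beyond it (24 with total counts alone, 4 with upper quartile factors) and CALR, whose interval had excluded 0, changed sign. Signs also changed for ASNS, PHGDH and MANF with total counts alone and for MTHFD2, TRIB3 and EDEM1 with upper quartile factors, all with intervals that included 0. Interval counts under other scalings were compared after seeing the data. Genes above 0 numbered 17 with TMM, 23 with total counts alone, 18 with DESeq2 and 15 with upper quartile factors, and genes below 0 numbered 11, 8, 11 and 12. With total counts alone 5 synthesis targets instead of 2 were higher and 4 chaperone and degradation targets instead of 7 lower. With upper quartile factors 1 synthesis target was lower and 1 of the 3 sensors higher, instead of 2. Of the 17 genes with an interval above 0, 15 kept it under the 4 scalings (not CEBPG and XBP1), and of the 11 below 0, 8 did (not HSP90B1, DNAJC3 and CALR). USP12 ranged from −1.81 to −1.63. No paired analysis was possible because only 1 library stood in either group. Depth limits ASNS, with 40 and 41 counts.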

Other observations

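Heat shock genes outside the endoplasmic reticulum were read for contrast. Of 12 cytosolic and mitochondrial heat shock genes, 5 were higher and 7 lower by their counting intervals (6 and 4 with total counts alone), with a median log2 ratio of −0.12 (0.01 with total counts alone) and a summed level of 8398 CPM in shCON and 7559 CPM in shUSP12. Of all tested rows 27.1% were higher and 29.1% lower (39.8% and 18.6% with total counts alone). HSPB1, a small heat shock protein, had 414 CPM in shCON and 269 CPM in shUSP12 (−0.62, 95% interval −0.68 to −0.57). DNAJB1 and BAG3, a J-domain protein and a co-chaperone of HSP70, had 99.3 and 115 CPM (0.21, 95% interval 0.12 to 0.30) and 74.5 and 85.3 CPM (0.19, 95% interval 0.09 to 0.30). HSPE1, the partner of the mitochondrial chaperonin HSPD1, had 122 and 88 counts beside 13843 and 13076 counts for HSPD1, and 34.5% of its main transcript is shared with the readthrough gene HSPE1-MOB4.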
